A study of Mus musculus with 6 samples.

Results

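The genes described here encode the apoptosome, the caspases it feeds, the mitochondrial proteins released beside cytochrome c and a nuclease of the execution phase, in mouse hematopoietic cells transformed with the leukemia fusion oncogene MLL-AF9. They were chosen by symbol as a set of 8 genes (Apaf1, Cycs, Casp2, Casp6, Casp9, Diablo, Htra2 and Dffb), and all 8 were found among the 24062 genes of the count table and passed the low-count filter that left 12126 genes for testing. RNA sequencing covered 3 libraries labelled A20 KO, from A20 f/f Rosa Cre-ER cells, and 3 labelled A20 WT, from A20+/+ Rosa Cre-ER cells. Both groups started from lineage negative cells, carried the retroviral oncogene and the tamoxifen-inducible Cre, and grew in IL-3, IL-6 and SCF. Both received 1 µM 4-hydroxytamoxifen for 48 h, so the controls shared every agent and differed by label in the A20 allele. The comparison was meant to ask how loss of A20, the ubiquitin-editing enzyme encoded by Tnfaip3, altered gene expression. However, the groups also differed in donor sex, and Tnfaip3 was higher in the KO-labelled libraries, as given below.

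In the intrinsic pathway of apoptosis, permeabilised mitochondria release cytochrome c, which binds Apaf1, and Apaf1 then assembles into the wheel-shaped apoptosome that recruits and activates procaspase-9. Active caspase-9 cleaves executioner caspases, which dismantle the cell, while the inhibitor of apoptosis (IAP) proteins hold caspases back until mitochondrial Diablo and Htra2 displace them. Caspase-2 is an initiator that is activated on a separate platform, the PIDDosome. Myeloid leukemia cells express this machinery, and its threshold for firing is set in large part by BCL2 family proteins.

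Promoters are shown for the genes of the apoptosome proper and for Casp2, the gene that fell, because the results below turn on them. Promoters came from RefSeq, build GRCm38.p6, which held an entry for 7 of the 8 genes, each running from 250 bases before to 50 after the annotated start. The stretches are written 5′ to 3′ on the strand of the gene, at chr10:91082694-91082993 on the minus strand for Apaf1, chr4:141793362-141793661 on the plus strand for Casp9, chr6:50566520-50566819 on the minus strand for Cycs and chr6:42264735-42265034 on the plus strand for Casp2. Capitals mark matches on either strand to the motifs named after the sequences.
Apaf1: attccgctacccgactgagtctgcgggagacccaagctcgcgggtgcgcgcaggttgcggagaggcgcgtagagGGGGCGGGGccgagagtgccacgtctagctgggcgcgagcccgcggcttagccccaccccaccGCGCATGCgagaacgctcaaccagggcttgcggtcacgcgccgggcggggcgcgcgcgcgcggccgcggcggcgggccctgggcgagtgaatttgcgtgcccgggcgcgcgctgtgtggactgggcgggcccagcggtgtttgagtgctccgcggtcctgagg
Casp9: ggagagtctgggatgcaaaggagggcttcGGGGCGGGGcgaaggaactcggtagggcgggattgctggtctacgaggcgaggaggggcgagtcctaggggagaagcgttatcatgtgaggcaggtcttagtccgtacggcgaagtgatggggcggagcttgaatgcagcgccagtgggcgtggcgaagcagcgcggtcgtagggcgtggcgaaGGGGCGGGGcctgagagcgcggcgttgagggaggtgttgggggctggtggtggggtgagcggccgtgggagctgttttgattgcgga
Cycs: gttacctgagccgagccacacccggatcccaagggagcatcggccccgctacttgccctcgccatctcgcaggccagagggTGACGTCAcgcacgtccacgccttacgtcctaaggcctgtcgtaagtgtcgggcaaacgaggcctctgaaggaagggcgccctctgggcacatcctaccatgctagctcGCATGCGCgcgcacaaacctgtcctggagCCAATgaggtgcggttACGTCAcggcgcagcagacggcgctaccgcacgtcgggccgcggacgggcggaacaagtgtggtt
Casp2: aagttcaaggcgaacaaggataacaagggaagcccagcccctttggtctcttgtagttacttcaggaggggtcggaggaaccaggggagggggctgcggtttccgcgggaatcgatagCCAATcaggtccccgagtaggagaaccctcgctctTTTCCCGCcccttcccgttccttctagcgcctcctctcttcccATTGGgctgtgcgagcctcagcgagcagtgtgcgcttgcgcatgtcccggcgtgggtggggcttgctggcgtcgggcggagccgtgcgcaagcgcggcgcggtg
The Apaf1 stretch held the core of the NRF1 motif (GCATGCGC) on the reverse strand and a GC box (GGGGCGGGG). The Casp9 stretch held 2 GC boxes. The Cycs stretch held the NRF1 core, a full cAMP response element (TGACGTCA), a further copy of its shorter core alone (TGACGT, which also lies within each full element, on both strands) and a CCAAT box (CCAAT). NRF1 is a transcription factor first characterised on the cytochrome c promoter of the rat. The Casp2 stretch held 2 CCAAT boxes and an E2F site (TTTCCCGC). Over all 32851 promoters of the same length, searched on both strands, 2.71% held the NRF1 core, 11.4% the GC box, 1.79% the full cAMP response element, 7.51% its shorter core, 37.4% a CCAAT box and 1.07% the E2F site. The NF-κB site was found in 5.80% of all promoters and the short p53 site in 8.36%, and in 0 of the 7 promoters of the set. These matches are letters in a 300-base window and were not tested for binding.

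The libraries held 16113320 to 25415274 counted reads, and mean depth was 20888008 in the KO-labelled and 20545377 in the WT-labelled group (p = 1 by an exact permutation test, two-sided, whose smallest p in this design is 0.1). Tnfaip3, the targeted gene, had 100.1, 74.1 and 79.1 CPM in KO-labelled libraries, compared with 7.39, 8.67 and 8.24 CPM in WT-labelled libraries, so the targeted gene went against its label (log2 fold change 3.38, SE 0.17; edgeR quasi-likelihood, adjusted p = 4.71e-05). Counts over whole genes do not measure the deletion of the floxed part, and groups are therefore named by their labels. Xist had 0, 4.76 and 4.77 CPM in KO-labelled libraries, compared with 564, 2109 and 2090 CPM in WT-labelled libraries, and Ddx3y averaged 83.3 and 0.47 CPM, so donor sex and A20 label cannot be told apart. The replicate 1 library of each group was unlike the others, for example in Gapdh, with 2716, 254 and 248 CPM in the KO-labelled and 2645, 181 and 167 CPM in WT-labelled libraries. The 8 genes and the counts of each pathway list are therefore also given for replicates 2 and 3 alone. Nothing in the labels states that replicates were separate cultures or animals, and the spread behind each p-value may therefore be technical.

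Within the set, the genes of the apoptosome scaffold and of its caspase were higher in the KO-labelled libraries, Htra2 was higher, Casp2 was lower, and 4 genes did not pass the test. Of the 8 genes, 3 rose and 1 fell at an adjusted p under 0.05 (edgeR, quasi-likelihood), in a comparison that called 27.3% of 12126 tested genes, 13.7% higher and 13.7% lower. The groups did not overlap for 5 of the 8 genes, against 47.6% of all tested genes. The median log2 fold change of the 8 genes was 0.25, beside −0.04 over all tested genes. Levels below are CPM, read counts scaled to library size with TMM factors, and counts behind them ranged from 187 reads for Dffb to 8524 for Cycs in single libraries.

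**Figure D1:**
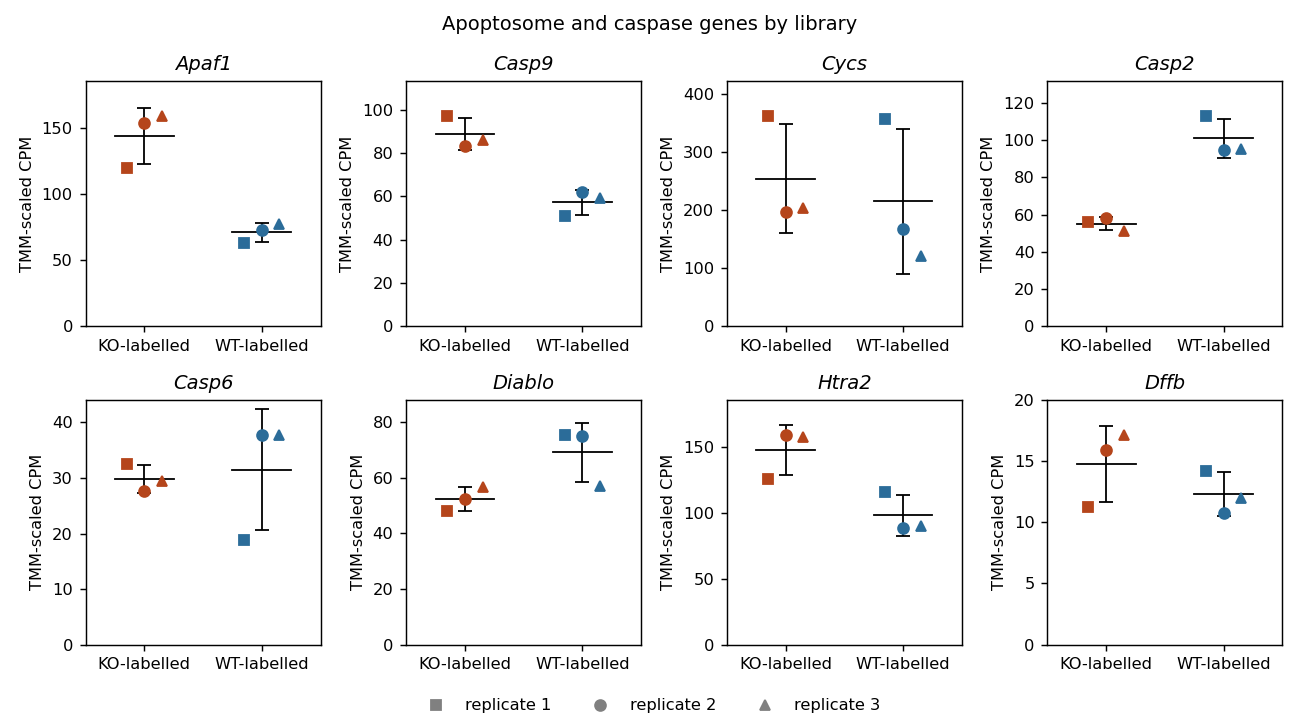
TMM-scaled CPM of each of the 8 genes (y axis, from 0) in the KO-labelled (left) and WT-labelled (right) libraries, with 1 symbol per library by replicate number; horizontal lines are means and bars are SD over 3 libraries. Apaf1, Casp9 and Htra2 lie higher in every KO-labelled library, Casp2 and Diablo lower, and the replicate 1 libraries lie highest for Cycs in both groups.

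Apaf1, the scaffold of the apoptosome, showed the largest change of the set. It lies on chromosome 10 at 90989311 to 91082770 (mm10, minus strand). Apaf1 had 119.8, 153.9 and 159.4 CPM in KO-labelled libraries, compared with 63.2, 72.6 and 77.2 CPM in WT-labelled libraries. The groups did not overlap, the KO-labelled values being higher, and the lowest KO-labelled value was that of replicate 1. Means were 144.4 ± 21.4 and 71.0 ± 7.15 CPM (SD, n = 3 each), a ratio of 2.03. The log2 fold change was 1.02 (SE 0.15, 95% interval 0.66 to 1.39; adjusted p = 0.0035 by edgeR). The replicate 1 libraries alone differed by 0.92 on the log2 scale and the fit to replicates 2 and 3 gave 1.05. With replicates 2 and 3 of each group summed into 1 sample, Apaf1 did not pass (adjusted p = 0.060 by edgeR; range over 18 alternatives 4.64e-07 to 0.060), in a comparison that called 8.44% of genes.

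Casp9, the initiator caspase recruited by Apaf1, rose by a smaller factor. It lies on chromosome 4 at 141793612 to 141815976 (plus strand). Its level was 97.1, 83.4 and 85.9 CPM in KO-labelled libraries, compared with 50.9, 62.0 and 59.0 CPM in WT-labelled libraries. The groups did not overlap, and the replicate 1 libraries were the highest of the KO-labelled and the lowest of the WT-labelled values. The ratio of means was 1.55, with a log2 fold change of 0.63 (SE 0.13, 95% interval 0.33 to 0.94; adjusted p = 0.012 by edgeR). The call was lost with replicates 2 and 3 summed (adjusted p = 0.096; range over 18 alternatives 5.99e-04 to 0.096). Casp9 shares 1.81% of its exon length with genes on the opposite strand, Cela2a and Ctrc, which had at most 0.12 CPM in any library.

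Cycs, which encodes the cytochrome c of the respiratory chain and of the apoptosome, did not pass. It lies on chromosome 6 at 50562563 to 50566538 (minus strand). Cycs had 361.7, 196.0 and 202.9 CPM in KO-labelled libraries, compared with 355.7, 167.4 and 120.7 CPM in WT-labelled libraries. The replicate 1 library was the highest of each group, and the groups overlapped. The log2 fold change was 0.24 (SE 0.43, 95% interval −0.78 to 1.26; adjusted p = 0.73 by edgeR), an interval that spans a fall and a rise. Within replicates 2 and 3 alone Cycs was called higher (log2 fold change 0.45; adjusted p = 0.040 by edgeR), where 52.9% of tested genes were called, and the replicate 1 libraries differed by 0.02. Of its 31-base words, 29.4% occur in transcripts of other genes, led by Gm10053, so its level carries an uncertainty from near-identical copies.

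**Figure D2:**
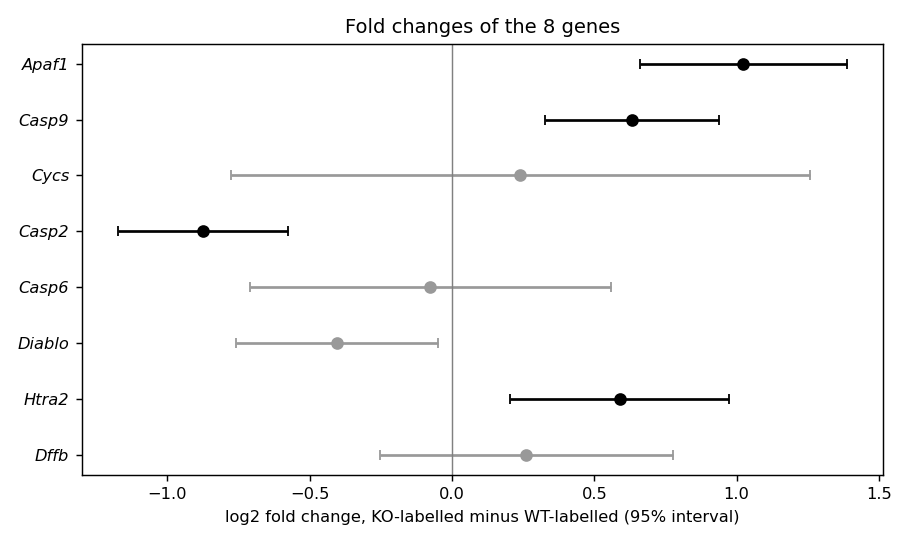
Log2 fold change, KO-labelled minus WT-labelled, with 95% intervals from edgeR's quasi-likelihood fit to 6 libraries, for the 8 genes; black marks passed an adjusted p of 0.05 and grey did not. Apaf1 at 1.02 and Casp2 at −0.87 are the farthest from 0.

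Among the other caspases of the set, Casp2 fell and Casp6 did not pass. Casp2, the initiator activated by the PIDDosome, lies on chromosome 6 at 42264985 to 42282508 (plus strand). It had 55.8, 58.2 and 51.2 CPM in KO-labelled libraries, compared with 113.1, 94.5 and 95.4 CPM in WT-labelled libraries. The KO-labelled values all lay below the WT-labelled ones, with a wide gap and little spread within the KO-labelled group. The ratio of means was 0.55, and the log2 fold change was −0.87 (SE 0.13, 95% interval −1.17 to −0.58; adjusted p = 0.0030 by edgeR). The replicate 1 libraries differed by −1.02 and the fit to replicates 2 and 3 gave −0.81, and the call was lost only with replicates 2 and 3 summed (adjusted p = 0.060; range over 18 alternatives 2.75e-08 to 0.060). None of the 31-base words of Casp2 occurred in transcripts of another gene.

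Casp6, an executioner caspase that cleaves nuclear lamins, lies on chromosome 3 at 129901425 to 129914103 (plus strand). Its level was 32.5, 27.6 and 29.4 CPM in KO-labelled libraries, compared with 18.9, 37.8 and 37.8 CPM in WT-labelled libraries. WT-labelled replicate 1 was the lowest of all 6 and the other WT-labelled libraries the highest, so the groups overlapped. The log2 fold change was −0.08 (SE 0.27, 95% interval −0.71 to 0.56; adjusted p = 0.87 by edgeR). Replicates 2 and 3 alone gave −0.43 (adjusted p = 0.0084 by edgeR), whereas the replicate 1 libraries differed by 0.79 in the opposite direction.

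Casp8, the initiator of the death receptor pathway and not one of the 8 genes, averaged 164.3 ± 6.26 CPM in the KO-labelled and 170.1 ± 4.18 CPM in WT-labelled libraries, and it did not pass (log2 fold change −0.05, 95% interval −0.30 to 0.20; adjusted p = 0.77 by edgeR).

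The mitochondrial IAP antagonists went in different directions. Htra2, a serine protease that is released from mitochondria and binds IAP proteins, lies on chromosome 6 at 83051266 to 83055273 (minus strand). It had 125.6, 159.5 and 157.6 CPM in KO-labelled libraries, compared with 116.0, 88.4 and 89.9 CPM in WT-labelled libraries. The groups did not overlap, but the replicate 1 libraries lay close to each other, with a log2 difference of 0.11. The log2 fold change over all libraries was 0.59 (SE 0.16, 95% interval 0.20 to 0.97; adjusted p = 0.036 by edgeR) and 0.81 within replicates 2 and 3. The call was lost without KO-labelled replicate 2 or 3 (adjusted p = 0.13 for both) and without WT-labelled replicate 2 or 3 (0.11 for both), where 15.0%, 15.4%, 19.8% and 20% of all genes (2483 of 12400 in the last) were called, within a range of 1.55e-04 to 0.27 over 18 alternatives. Without WT-labelled replicate 1, where 42.8% of genes were called, Htra2 kept its call. Exons of Aup1 on the opposite strand cover 25.6% of the exon length of Htra2. Aup1 averaged 184.8 ± 7.96 CPM in the KO-labelled and 156.2 ± 4.36 CPM in WT-labelled libraries. The strand setting of the counting is not given in the sources used here, so the part of Aup1 reads in the Htra2 count was not tested.

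Diablo, also called Smac, which frees caspases by binding IAP proteins, had lower values in the KO-labelled libraries but did not pass. It lies on chromosome 5 at 123509765 to 123524176 (minus strand). Its level was 48.2, 52.3 and 56.7 CPM in KO-labelled libraries, compared with 75.7, 75.2 and 57.0 CPM in WT-labelled libraries. The groups did not overlap, by a margin of less than 1 CPM between KO-labelled and WT-labelled replicate 3. The log2 fold change was −0.40 (SE 0.15, 95% interval −0.76 to −0.05; adjusted p = 0.089 by edgeR). Without WT-labelled replicate 3, where 20% of genes were called, it passed (−0.53, adjusted p = 0.040 by edgeR; range over 18 alternatives 0.040 to 0.26). B3gnt4, whose exons on the opposite strand cover 21.5% of the exon length of Diablo, had at most 0.42 CPM in any library. Exons of Gm49027, on the same strand, cover 19.35%, and this gene is absent from the counts. Of the 31-base words of Diablo, 39.57% occur in transcripts of other genes, on either strand. The effect of these overlaps on the Diablo count was not tested.

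Dffb, the caspase-activated DNase that cuts chromatin between nucleosomes, was the least abundant gene of the set. It lies on chromosome 4 at 153964449 to 153975126 (minus strand). It had 11.3, 15.9 and 17.2 CPM in KO-labelled libraries, compared with 14.2, 10.7 and 12.0 CPM in WT-labelled libraries. The KO-labelled replicate 1 value fell among the WT-labelled ones. The log2 fold change was 0.26 (SE 0.22, 95% interval −0.25 to 0.78; adjusted p = 0.42 by edgeR), 0.52 within replicates 2 and 3 (adjusted p = 0.018 by edgeR) and −0.34 between the replicate 1 libraries. Dffa, the inhibitor and chaperone that binds this nuclease, averaged 41.1 ± 1.15 CPM in the KO-labelled and 36.2 ± 7.60 CPM in WT-labelled libraries and did not pass (adjusted p = 0.46).

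**Figure D3:**
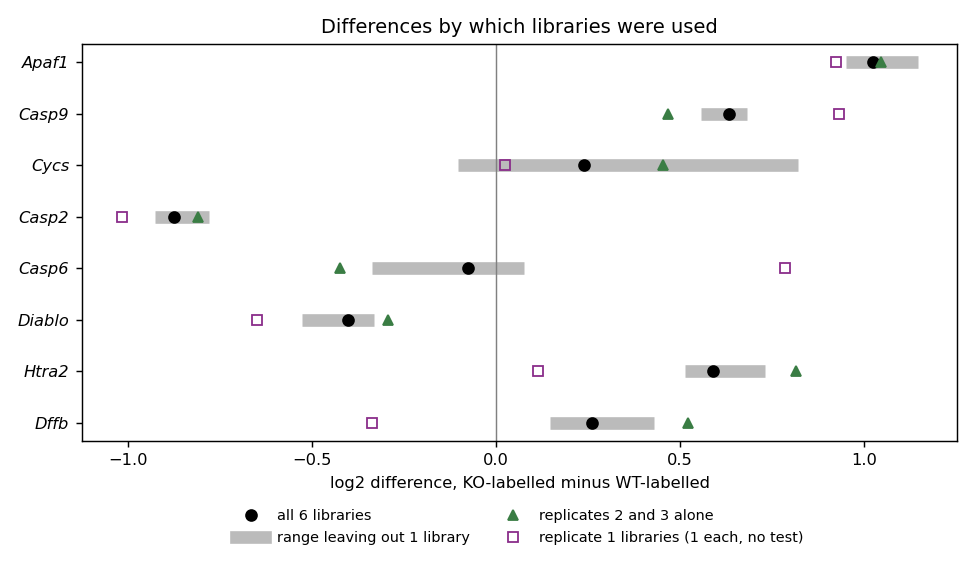
Log2 difference, KO-labelled minus WT-labelled, of each gene from all 6 libraries (black circles), from replicates 2 and 3 alone (green triangles) and between the single replicate 1 libraries (open squares, no test); grey bars span the fits that leave out 1 library. Apaf1, Casp9, Casp2 and Diablo keep their direction in all of these, whereas Casp6 and Dffb differ in direction between the replicate 1 libraries and the others.

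The genes differed in how they behaved across replicates. For Apaf1, Casp9, Casp2, Diablo and Htra2 the replicate 1 libraries and the fit to replicates 2 and 3 had the same sign. For Casp6 and Dffb the sign differed, and for Cycs the replicate 1 difference was near 0. In replicates 2 and 3 alone 5 of the 8 genes were called higher and 2 lower, in a comparison that called 52.9% of all tested genes. With those replicates summed, 0 of the 8 passed by edgeR in either direction, in a comparison that called 8.44% of all tested genes. At an unadjusted p under 0.05 by edgeR in the summed fit, 2 of the 8 were higher and 1 lower. The share of all genes at that unadjusted threshold is not given here.

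Per length of transcript, Htra2 and Cycs ranked above every caspase of the set in either group, and Dffb ranked last. On the scale of TMM-scaled CPM per kilobase of the median coding transcript, levels in the KO-labelled libraries were 90.6 ± 11.7 for Htra2, 81.2 ± 30.0 for Cycs and 70.1 ± 5.67 for Diablo. The range of Cycs overlapped those of Htra2 and Diablo, whereas every Htra2 value lay above every Diablo value. They were followed by Casp9 at 32.9 ± 2.71 and Apaf1 at 28.0 ± 4.16, which also overlapped, then by Casp6 at 20.5 ± 1.72, Casp2 at 15.6 ± 1.01 and Dffb at 7.07 ± 1.49. In the WT-labelled libraries the order was Diablo at 92.7 ± 14.2, Cycs at 68.7 ± 39.8, Htra2 at 60.2 ± 9.54, Casp2 at 28.6 ± 2.97, Casp6 at 21.6 ± 7.51, Casp9 at 21.2 ± 2.14, Apaf1 at 13.8 ± 1.39 and Dffb at 5.89 ± 0.84. Among the caspases of the set Casp2 was the lowest in the KO-labelled and the highest in the WT-labelled libraries on this scale. Over merged exons it remained the highest in the WT-labelled libraries (14.3 ± 1.48), but in the KO-labelled libraries it lay above Casp6, at 7.80 ± 0.50 and 5.34 ± 0.45. The place of Diablo also depended on the length used: over its merged exons its level was 8.50 ± 0.69 in the KO-labelled and 11.2 ± 1.72 in the WT-labelled libraries, below Casp9 in the KO-labelled group.

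Ratios within a library do not depend on how libraries are scaled to each other. The ratio of Apaf1 to Casp2, per kilobase of transcript, was 1.47, 1.81 and 2.13 in KO-labelled libraries, compared with 0.38, 0.53 and 0.55 in the WT-labelled libraries. On this scale Apaf1 mRNA therefore lay above Casp2 mRNA in each KO-labelled library and in no WT-labelled library. Protein was not measured. For Htra2 over Diablo it was 1.20, 1.40 and 1.28 in KO-labelled libraries, compared with 0.70, 0.54 and 0.72 in the WT-labelled libraries. Apaf1 over Casp9 was 0.65, 0.97 and 0.97 in KO-labelled libraries, compared with 0.65, 0.61 and 0.68 in the WT-labelled libraries, and there the groups overlapped. These ratios combine genes already described and were not tested.

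**Figure D4:**
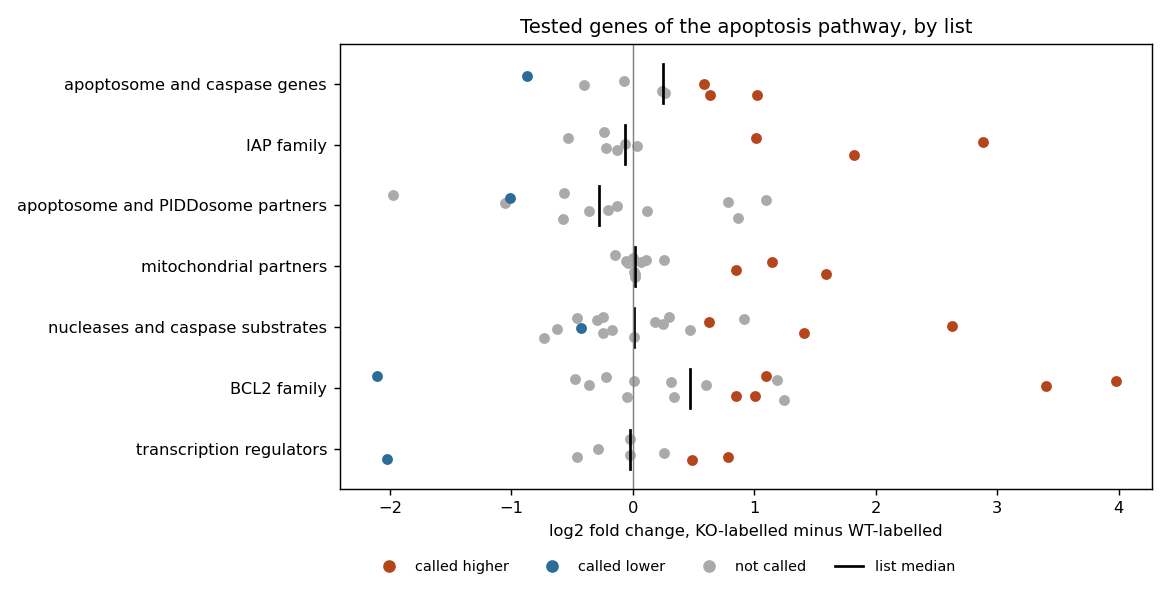
Log2 fold change, KO-labelled minus WT-labelled (x axis), of every tested gene in the set of 8 (top row) and in 6 lists of other genes of the pathway; colours mark genes called higher or lower by edgeR at an adjusted p under 0.05, grey marks genes not called, and black bars are list medians. The list medians run from −0.28 for partners of the apoptosome and the PIDDosome to 0.47 for the BCL2 family.

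Among the IAP genes, whose products bind and restrain caspases, 3 rose, 0 fell and 6 did not pass of 9 tested, with a median log2 fold change of −0.06 (1 was lower at an unadjusted p under 0.05 by edgeR, and 0 were called lower by DESeq2 or limma-voom). The share called was 33.3%, beside 27.3% of all tested genes. Birc3 (log2 fold change 1.82, SE 0.21), a ubiquitin ligase of tumour necrosis factor receptor complexes, Naip2 (1.01, SE 0.15) and Naip1 (2.88, SE 0.83), sensors of bacterial secretion systems, were the members that rose (adjusted p = 0.0011, 0.0031 and 0.041 by edgeR). Naip genes are near-identical neighbours, so the split of reads between them is uncertain. Xiap, the strongest direct caspase inhibitor of the family and the partner that Diablo and Htra2 displace, averaged 73.1 ± 4.44 CPM in the KO-labelled and 71.3 ± 14.1 CPM in WT-labelled libraries (95% interval of the log2 fold change −0.36 to 0.43; adjusted p = 0.90).

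Of 12 tested partners and regulators of the apoptosome and the PIDDosome, 0 rose, 1 fell and 11 did not pass, with a median of −0.28. Calls made up 8.33% of this list, beside 27.3% of all tested genes. At an unadjusted p under 0.05, 3 were higher and 3 lower by edgeR. DESeq2 called 2 higher and 2 lower, and limma-voom called 0 in either direction. Cradd, the adaptor that links caspase-2 to the PIDDosome, averaged 3.96 ± 0.37 CPM in the KO-labelled and 8.01 ± 2.54 CPM in WT-labelled libraries (log2 fold change −1.01, SE 0.30; adjusted p = 0.044 by edgeR). Pidd1, the sensor of the same complex, averaged 22.5 ± 3.43 and 24.6 ± 0.85 CPM and did not pass (adjusted p = 0.58).

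Of 13 tested mitochondrial partners, 3 rose, 0 fell and 10 did not pass (median 0.02; 0 were lower at an unadjusted p under 0.05 by edgeR, and 0 by DESeq2 or limma-voom). With 23.1% called, the list lay near the 27.3% of all tested genes. Aifm2, an oxidoreductase that protects membrane lipids, had 29.6 ± 2.82 CPM in the KO-labelled and 9.83 ± 0.092 CPM in WT-labelled libraries (log2 fold change 1.59, SE 0.14; adjusted p = 4.11e-04 by edgeR). Hax1, a partner of Htra2 in mitochondria, averaged 131.1 ± 7.55 and 72.6 ± 19.8 CPM, and the mitochondrial nuclease gene Endog 18.7 ± 1.07 and 8.47 ± 3.89 CPM (adjusted p = 0.019 and 0.043 by edgeR). Hccs, which attaches heme to cytochrome c, did not pass (log2 fold change −0.06, adjusted p = 0.75).

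Of 17 tested nucleases and caspase substrates of the execution phase, 3 rose, 1 fell and 13 did not pass, with a median of 0.01. Called genes were 23.5% of this list, near the 27.3% of all tested genes. Xkr8, a scramblase that exposes phosphatidylserine after caspase cleavage, averaged 23.8 ± 2.85 CPM in the KO-labelled and 8.96 ± 1.68 CPM in WT-labelled libraries (log2 fold change 1.41, SE 0.20; adjusted p = 0.0025 by edgeR). Dnase1l3, a secreted DNase, rose to 3.96 ± 0.39 CPM in KO-labelled libraries, compared with 0.64 ± 0.23 CPM in WT-labelled libraries. Stk4, a kinase that caspases activate by cleavage, averaged 322.3 ± 5.42 and 208.3 ± 9.89 CPM. Rock1, the kinase behind membrane blebbing, fell to 91.5 ± 1.65 CPM, against 122.9 ± 9.99 CPM in WT-labelled libraries (adjusted p = 0.0035, 0.0077 and 0.031 for these genes by edgeR). Parp1, a classic caspase substrate, averaged 171.1 ± 13.4 and 264.1 ± 74.1 CPM and did not pass (adjusted p = 0.065).

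The BCL2 family, which decides whether cytochrome c is released, had 5 members that rose, 1 that fell and 10 that did not pass of 16 tested, with a median of 0.47. Its called share was 37.5%, beside 27.3% of all tested genes. Bax, a pore-forming effector, averaged 311.9 ± 9.82 CPM in the KO-labelled and 155.3 ± 23.2 CPM in WT-labelled libraries (log2 fold change 1.01, SE 0.15; adjusted p = 0.0031 by edgeR). The BH3-only genes Bbc3 (0.85, SE 0.14) and Bik (3.40, SE 0.50, at 1.74 ± 0.16 against 0.15 ± 0.083 CPM) rose as well. Survival genes went in both directions. Mcl1, which blocks the pore-forming effectors, averaged 635.7 ± 78.9 CPM in the KO-labelled and 297.8 ± 48.1 CPM in WT-labelled libraries (log2 fold change 1.09, SE 0.18; adjusted p = 0.0052 by edgeR). Bcl2a1a, another survival gene and one of several near-identical copies, had 21.5, 11.8 and 11.9 CPM in KO-labelled libraries, compared with 0.083, 1.09 and 1.74 CPM in WT-labelled libraries (adjusted p = 0.011 by edgeR). Bcl2 fell by 2.11 on the log2 scale (SE 0.12; adjusted p = 8.28e-05 by edgeR).

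Of 8 tested transcription regulators of genes in the set, 2 rose, 1 fell and 5 did not pass, with a median of −0.02. Among these regulators 37.5% were called, beside 27.3% of all tested genes. E2f1 (log2 fold change 0.49, SE 0.12) and E2f2 (0.79, SE 0.21), E2F factors that drive S phase genes and, in human cells, APAF1, passed at adjusted p = 0.027 and 0.033 by edgeR. Ppargc1a, a coactivator of mitochondrial genes with NRF1, had 0.66 ± 0.058 CPM in the KO-labelled and 2.72 ± 1.51 CPM in WT-labelled libraries (adjusted p = 0.036 by edgeR). Nrf1 averaged 51.6 ± 6.14 and 52.5 ± 7.22 CPM and did not pass, nor did Trp53, whose product activates Apaf1, at 174.6 ± 18.8 and 145.8 ± 40.4 CPM (adjusted p = 0.93 and 0.40).

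Calls in these lists differed in how far they rested on single libraries. Cradd, Hax1, Endog, Naip1, Rock1, E2f1, E2f2 and Ppargc1a each lost their call when any library other than WT-labelled replicate 1 was left out (adjusted p up to 0.33 over all alternatives of these genes). Stk4 lost it without KO-labelled replicate 2 (adjusted p = 0.052) and with replicates 2 and 3 summed (0.12), and Bax, Bbc3, Bik and Dnase1l3 lost it in that summed fit alone (adjusted p = 0.053, 0.059, 0.059 and 0.051 by edgeR). Mcl1 and Bcl2a1a, the other BCL2 family genes that rose, did not pass in the summed fit either. A replicate block called 4 BCL2 family genes higher and 1 lower, where 16.7% of all tested genes were called. Aifm2, Bcl2, Birc3, Naip2 and Xkr8 passed under all 17 alternatives at the 0.05 threshold. In the summed fit, which called 8.44% of genes, the counts were 2 higher and 0 lower among IAP genes, 0 and 0 among partners of the apoptosome and the PIDDosome, 1 and 0 among mitochondrial partners, 1 and 0 among nucleases and substrates, 0 and 1 in the BCL2 family and 0 and 0 among transcription regulators. At an unadjusted p under 0.05 by edgeR the same fit gave, in that order, 3 and 0, 1 and 0, 3 and 0, 3 and 1, 6 and 1, and 2 and 0. Replicates 2 and 3 alone moved the log2 fold change of Naip1 to 1.89 and that of Bik to 4.00. Without replicate 1 in both groups the counts were 4 higher and 3 lower among partners of the apoptosome and the PIDDosome, 9 and 1 among 14 mitochondrial partners then tested, 5 and 6 among nucleases and substrates, 3 and 3 among IAP genes, 7 and 3 in the BCL2 family and 4 and 1 among transcription regulators, beside 52.9% of all tested genes.

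The genes closest to the apoptosome genes in pattern were found by Pearson correlation of log2 CPM over the 6 libraries, among 9666 genes with at least 5 CPM on average. These values share the same libraries and the same group difference and carry no test. For Apaf1 they were Tm7sf2 (0.996), Acsl4 (0.996) and Cry2 (0.995), and 709 genes exceeded 0.9. For Casp9 they were Slc6a8 (0.999), Prdx5 (0.998) and Nkiras2 (0.998), and 1126 genes exceeded 0.9. For Cycs they were Actr2 (0.998), Uck1 (0.990) and Ppcs (0.989), with 201 genes above 0.9. The 3 genes beside Cycs did not pass the test between groups, while those beside Apaf1 and Casp9 rose. Genes chosen to follow a gene of the set over these libraries largely share its group difference, so this outcome was set by the choice.

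Markers of the labelled cells also differed between the groups, most often those of progenitors, and a joint change with the set was not tested. Calls covered 75% of progenitor, 25% of hematopoietic and myeloid and 66.7% of MLL-AF9 program markers, beside 27.3% of all tested genes. Of 8 progenitor markers 6 fell and none was at 0, and their summed level ran from 1429 to 2153 CPM in the KO-labelled libraries and from 4117 to 4643 CPM in WT-labelled libraries. Of 8 markers of hematopoietic and myeloid cells 2 rose and 0 fell by edgeR (0 were lower at an unadjusted p under 0.05, and 0 by DESeq2 or limma-voom), with sums of 2979 to 4755 CPM and 1323 to 5249 CPM. In replicates 2 and 3 alone 8 progenitor markers were lower, and 3 markers of hematopoietic and myeloid cells were higher and 2 lower. Without WT-labelled replicate 1 alone the counts were 7 lower for progenitor markers and 2 higher and 1 lower for hematopoietic and myeloid markers. With replicates 2 and 3 summed they were 4 lower, and 0 higher and 0 lower. At an unadjusted p under 0.05 by edgeR, 2 hematopoietic and myeloid markers were higher and 0 lower in that summed fit. These fits called 52.9%, 42.8% and 8.44% of all tested genes, in that order. Lyz2, the myeloid lysozyme gene, had 1019, 590.1 and 598.0 CPM in KO-labelled libraries, compared with 243.0, 2705 and 1889 CPM in WT-labelled libraries, so that replicate 1 differed in the opposite direction from replicates 2 and 3. Megakaryocyte markers summed to 0.90 to 1.13 CPM in the KO-labelled and 27.7 to 41.3 CPM in WT-labelled libraries, and mast cell and basophil markers, with Fcer1a, Tpsab1, Tpsb2 and Cma1 at 0, to 11.6 to 13.6 and 21.1 to 36.4 CPM. Among T and NK cell markers Cd3e, Cd8a, Ncr1 and Cd2 had no reads, among B cell markers Ms4a1 and Pax5, and among erythroid markers the 4 globin genes and Alas2. Summed levels in the KO-labelled and WT-labelled libraries were 0.69 to 4.78 and 0 to 0.11 CPM for T and NK cells (1 gene tested, which rose), 0.60 to 1.00 and 2.13 to 2.53 CPM for B cells (1 tested, which fell) and 0.90 to 1.25 and 0.099 to 1.00 CPM for erythroid cells (1 tested, not called). Stromal and endothelial markers summed to 3.65 to 5.91 and 0.83 to 2.19 CPM, with 1 of 2 tested genes higher, and of 6 genes of the MLL-AF9 program 2 rose and 2 fell, with sums of 750.0 to 879.1 and 591.7 to 621.0 CPM. In bulk RNA a smaller share of cells of a type and less RNA per cell cannot be told apart, and the part of cell composition in the results above was not tested.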

How the data were processed

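RNA was sequenced after a stranded TruSeq mRNA preparation, per the labels' protocols. The authors deposited unnormalized read counts for each gene in each library. FastQC 0.11.7, HISAT2 2.0.5 and featureCounts 1.5.2 were used with mm10, per the submitters' processing notes. The annotation, strand setting and handling of multi-mapping reads are not known here. Library totals are in the report; precision is limited by 3 libraries per group.

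Counts were fitted in R 4.3.3 with the package edgeR 4.0.16 (scaling by TMM, default low-count filter, robust quasi-likelihood test, Benjamini-Hochberg adjustment over all 12126 tested genes at 0.05), KO-labelled minus WT-labelled. Standard errors are the fold change over the square root of F, and 95% intervals use the fit's degrees of freedom. DESeq2 1.42.0 and limma 3.58.1 (voom) were alternatives, beside other scalings, filters, non-robust dispersion, a block, a threshold of 0.01, leaving out each library, and replicates 2 and 3 alone or summed. The code was tested on simulated counts.

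The genes and lists were chosen with earlier results of these data known. All 8 genes are reported; each list names up to 4 called genes in order of p, and further uncalled genes (Casp8, Xiap, Pidd1, Hccs, Dffa, Parp1, Nrf1, Trp53), the called genes Mcl1 and Bcl2a1a, the marker Lyz2 and the overlapping genes were chosen for naming with their values in view. Positions, exon lengths and 31-base words came from GENCODE M21, the same assembly; 1 listed gene was matched by an older symbol. The list of other caspase genes was tested but is not reported here.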

Additional observations from a re-analysis of the deposited data

How the results depend on the processing

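Over 18 alternatives Apaf1, Casp9, Casp2, Htra2, Diablo and Dffb kept their direction. On the log2 scale Casp6 turned to 0.011 with limma-voom, 0.062 and 0.077 when WT-labelled replicate 2 or 3 was left out and 0.13 with replicates 2 and 3 summed (−0.34 to 0.077 leaving out 1 library). Cycs turned to −0.10 when KO-labelled replicate 1 and −0.047 when WT-labelled replicate 3 was left out (−0.10 to 0.82 leaving out 1 library). All genes called numbered 3316 (1694 at an adjusted p under 0.01, 6458 in replicates 2 and 3 alone, 1061 with them summed, 1855 to 5280 leaving out 1 library). Of the 8 genes, 3 were called higher (1 at 0.01, 5 in replicates 2 and 3 alone, 0 summed, 2 to 3 leaving out 1 library) and 1 lower (2 in replicates 2 and 3 alone, 0 summed, 1 to 2 leaving out 1 library). Deviations from group means, over all tested genes, correlated at 0.01, −0.04 and 0.05 between same-numbered libraries. This cannot decide whether replicate numbers pair the libraries, because a correlation over all genes can miss a shift shared by some genes. Gapdh, for example, was highest in replicate 1 of both groups. A replicate block called 2023 genes and 1 of the 8 higher, with Casp9 at an adjusted p of 0.060 and Htra2 at 0.11 by edgeR. The causes were not tested. Scalings moved the median of all genes by under 0.1 on the log2 scale.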
